A study of Homo sapiens with 6 samples.

Results

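The comparison covers the 2 H4K12la and the 2 HDAC1 CUT&Tag libraries of HepG2 cells, region by region. A region was counted for a target when peaks of both its replicates overlapped by at least 1 bp on the 22 numbered chromosomes, X or Y. By this rule H4K12la had 3561 regions and HDAC1 had 3089, which makes 6650 of the 7418 regions of the series, the other 768 being ENO1 regions. Of these, 1246 H4K12la regions overlapped an HDAC1 region and 1246 HDAC1 regions overlapped an H4K12la region, and merging them gave 1242 shared regions.

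The study profiled 3 targets in HepG2, a human liver cancer line labelled hepatocellular carcinoma, with 2 libraries per target. In CUT&Tag an antibody tethers a transposase to its target in permeable cells, so that DNA beside the target is cut and tagged for sequencing. The antibodies bound histone H4 lactylated at lysine 12 (H4K12la), histone deacetylase 1 (HDAC1) or the glycolytic enzyme enolase 1 (ENO1), and the series title couples ENO1 and HDAC1 to histone lactylation. No treatment, knockdown or other genotype is named in the labels for any library, and they do not say whether replicates were separate cultures, so the spread between replicates may be technical.

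Lysine lactylation is a modification built from lactate-derived groups and is found on histone tails, among other proteins. HDAC1 is a catalytic subunit of the Sin3, NuRD and CoREST complexes and removes acetyl groups from histones, and class I deacetylases have also been described as removing lactyl groups. HDAC1 has no DNA-binding domain of its own and reaches chromatin through its complexes, where it is commonly mapped at the promoters of active genes as well as repressed ones.

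The promoters of 6 genes are shown first, chosen with their values seen from high-ranking gene-end regions of each class, because at least 1 summit of each lay in the printed window. They are CEP290 (chr12:88142089-88142338, minus strand) and RIOK1 (chr6:7389558-7389807, plus strand) from shared regions, MINDY3 (chr10:15860508-15860757, minus strand) and GPATCH2 (chr1:217631091-217631340, minus strand) from regions with H4K12la alone, and PELI1 (chr2:64144421-64144670, minus strand) and ODAD3 (chr19:11435122-11435371, minus strand) from regions with HDAC1 alone. Each run holds the 250 bases before the gene's annotated start, from RefSeq on build GRCh38.p14, and is written 5′ to 3′ on the gene's strand. Capitals mark matches on either strand to the CCAAT box (read as CCAAT), the GC box (GGGCGG) and a core of the ETS motif (CCGGAAG).
CEP290: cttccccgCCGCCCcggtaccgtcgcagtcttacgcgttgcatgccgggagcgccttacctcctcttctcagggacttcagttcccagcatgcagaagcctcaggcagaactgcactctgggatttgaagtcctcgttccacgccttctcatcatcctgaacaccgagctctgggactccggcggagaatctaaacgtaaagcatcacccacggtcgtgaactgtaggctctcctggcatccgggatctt
RIOK1: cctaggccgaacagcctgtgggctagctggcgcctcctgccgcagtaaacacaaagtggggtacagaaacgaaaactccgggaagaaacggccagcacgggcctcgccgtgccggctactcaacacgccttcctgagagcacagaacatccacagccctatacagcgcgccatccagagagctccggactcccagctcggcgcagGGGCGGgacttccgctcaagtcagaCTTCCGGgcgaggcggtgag
MINDY3: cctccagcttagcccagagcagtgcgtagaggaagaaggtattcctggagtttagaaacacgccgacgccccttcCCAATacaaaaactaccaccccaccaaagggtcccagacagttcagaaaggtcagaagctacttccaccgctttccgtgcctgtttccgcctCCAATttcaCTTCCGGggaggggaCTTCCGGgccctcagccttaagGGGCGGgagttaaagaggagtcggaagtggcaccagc
GPATCH2: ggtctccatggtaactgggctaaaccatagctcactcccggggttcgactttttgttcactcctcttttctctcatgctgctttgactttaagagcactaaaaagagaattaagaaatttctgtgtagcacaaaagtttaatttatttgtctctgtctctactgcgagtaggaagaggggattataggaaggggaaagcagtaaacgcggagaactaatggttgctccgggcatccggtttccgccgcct
PELI1: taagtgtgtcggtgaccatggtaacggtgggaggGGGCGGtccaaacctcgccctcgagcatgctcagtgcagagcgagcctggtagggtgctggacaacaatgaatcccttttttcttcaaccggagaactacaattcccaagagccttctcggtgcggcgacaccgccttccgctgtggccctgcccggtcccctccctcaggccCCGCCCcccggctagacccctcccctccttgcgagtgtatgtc
ODAD3: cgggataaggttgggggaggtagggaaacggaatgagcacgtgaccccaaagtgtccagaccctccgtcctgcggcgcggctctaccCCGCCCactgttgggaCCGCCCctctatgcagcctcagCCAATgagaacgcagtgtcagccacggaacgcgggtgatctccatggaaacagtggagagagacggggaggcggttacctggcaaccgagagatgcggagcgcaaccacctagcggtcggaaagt
At CEP290, which encodes a protein of the ciliary transition zone, the summits lay at -29 and -30 bp from the start in the H4K12la libraries and at -29 bp in both HDAC1 libraries. The CEP290 region is also among the 5 shared gene-end regions with the closest summits, and like RIOK1 it ranks below the 8 strongest. At RIOK1, which encodes a kinase of small ribosomal subunit maturation, the second H4K12la replicate and both HDAC1 replicates had summits at -91, -90 and -91 bp, while the first H4K12la replicate had its summit at 133 bp. At MINDY3, a deubiquitinase gene, the H4K12la summits were at -37 and -44 bp, and at GPATCH2 they were at 30 and -31 bp. The HDAC1 summits were at -78 and -69 bp at PELI1, an E3 ubiquitin ligase gene, and at -241 and -168 bp at ODAD3, a gene of ciliary dynein docking.

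The 4 peak lists differed in length and in reach. On the 24 chromosomes the H4K12la lists held 5459 and 7568 peaks and the HDAC1 lists 5727 and 4567. The median fold enrichment, the peak caller's own value, was 4.01 and 4.04 for H4K12la and 4.67 and 4.88 for HDAC1. Fold enrichments were not scaled between libraries, so they are compared here only as percentiles within a list, 100 being the strongest peak. Read depth is unknown and weak signal can go uncalled, so "alone" means without a called peak of the other target. Of 14 hepatocyte markers, 2 had an H4K12la region at a gene end and none had an HDAC1 region, beside 10.4% and 8.19% of all protein-coding genes. The 2 were HNF4A (fold 3.55 and 3.34) and FOXA1 (3.31 and 2.77), transcription factors of liver cells, which each also had a peak in the first HDAC1 library (3.27 and 3.13). The secreted protein genes ALB, AFP, APOA1 and TTR had no peak in any of the 4 libraries, and the markers of blood, fibroblasts and neurons had no region of either target.

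Shared regions made up 35.0% of the H4K12la regions (Wilson 95% interval 33.4 to 36.6) and 40.3% of the HDAC1 regions (38.6 to 42.1). Intervals throughout cover counting error only. H4K12la stood alone, with no HDAC1 peak in either replicate, in 1617 regions, and another 698 H4K12la regions met an HDAC1 peak that was not part of a region of both HDAC1 replicates. HDAC1 stood alone in 1081 regions, and another 762 met an H4K12la peak of that kind. The shares moved with the library left out: the H4K12la share was 23.5% without H4K12la replicate 1 and 50.2% without HDAC1 replicate 2, and the HDAC1 share was 57.3% and 31.3% in the same settings. In these settings a target with 1 library left is represented by all peaks of that library.

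Few single-target regions lay just beyond the overlap rule from a peak of the other target. The median distance to the nearest peak of the other target, in either of its libraries, was 114 kb for H4K12la-only regions and 48.2 kb for HDAC1-only regions. Within 1 kb there was a peak of the other target beside 27 (1.67%) of the former and 51 (4.72%) of the latter. At gene ends the medians were 145 and 56.2 kb. The peak lists of the targets differ in length and no distance was computed for arbitrary positions, so these medians do not compare the classes.

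The 3 classes lay in different places relative to genes. A region was placed at a gene end when it touched the 1 kb around either annotated end of a protein-coding gene. This held for 812 of 1617 H4K12la-only regions (50.2%, 47.8 to 52.7), 478 of 1081 HDAC1-only regions (44.2%, 41.3 to 47.2) and 472 of 1242 shared regions (38.0%, 35.3 to 40.7). The interval of the H4K12la-only regions lay above both others, but this order rests on both H4K12la libraries: in the order H4K12la-only, HDAC1-only and shared the values were 41.8%, 40.5% and 41.8% without H4K12la replicate 1, and 41.2%, 46.7% and 35.3% without H4K12la replicate 2. The order turned without peaks that overlap an ENO1 peak, to 50.5%, 55.7% and 63.3%. The remaining part of gene bodies held 503 H4K12la-only regions (31.1%), 182 HDAC1-only regions (16.8%) and 202 shared regions (16.3%). Regions more than 50 kb from any protein-coding gene were 111 of the H4K12la-only class (6.86%), 298 of the HDAC1-only class (27.6%) and 416 of the shared class (33.5%). In the full lists the share beyond 50 kb thus set H4K12la-only regions apart, while shared and HDAC1-only regions were closer to each other. Most shared and HDAC1-only regions beyond 50 kb overlapped an ENO1 peak, and these shares by class were not compared without such regions.

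**Figure D1:**
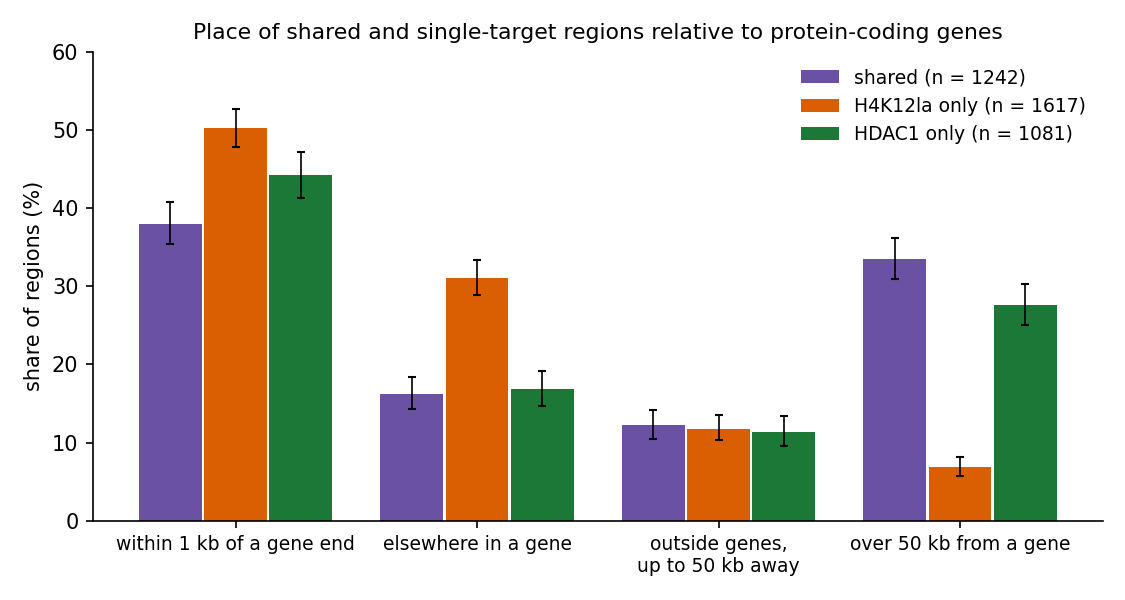
Share of regions (%, vertical axis) in each of 4 places relative to protein-coding genes, for 1242 shared, 1617 H4K12la-only and 1081 HDAC1-only regions. Bars are shares and whiskers are Wilson 95% intervals. H4K12la-only regions reach 50.2% at gene ends and 6.86% beyond 50 kb, where shared regions reach 33.5%.

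Over whole lists, the share of peaks beyond 50 kb was 17.5% and 12.9% in the H4K12la libraries and 25.4% and 35.1% in the HDAC1 libraries. The targets did not overlap, with a mean difference of -15.1 points (exact permutation test over libraries, two-sided, p = 0.333, the smallest p that 2 libraries against 2 allow). The share at gene ends was 41.0% and 43.8% for H4K12la and 41.0% and 34.7% for HDAC1. That difference, 4.55 points, was within the spread of the replicates (exact permutation p = 0.667), and it became -1.15 points once peaks overlapping an ENO1 peak were left out.

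ENO1 peaks marked the same division. They overlapped 359 of the 416 shared regions beyond 50 kb (86.3%, 82.7 to 89.3) and 180 of the 298 HDAC1-only regions there (60.4%), against 2 of the 111 H4K12la-only regions. At gene ends an ENO1 peak overlapped 14 shared, 5 HDAC1-only and 0 H4K12la-only regions.

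Shared regions were wide and single-target regions narrower. The median width was 915 bp for shared, 773 bp for H4K12la-only and 589 bp for HDAC1-only regions, and at gene ends it was 1005, 812 and 619 bp. A shared region is the union of peaks from 4 lists and a single-target region of 2, so the first is wider by construction. The widths of single peaks do not have this limit: their medians were 536 and 543 bp in the H4K12la lists and 499 and 435 bp in the HDAC1 lists. H4K12la peaks were wider in both libraries than in either HDAC1 library, by 72.5 bp on average (exact permutation p = 0.333, two-sided, the smallest possible). The narrowest peak of each list also differed, at 344 and 325 bp for H4K12la and 309 and 280 bp for HDAC1. After subtracting it, the medians were 192 and 218 bp for H4K12la and 190 and 155 bp for HDAC1, a difference of 32.5 bp.

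At gene starts the median summit positions of the targets lay on different sides, though summits of both targets lay on either side. Of the summits within 1 kb of an annotated start of a protein-coding gene (2025 and 2969 for H4K12la, 2097 and 1412 for HDAC1), the median position was 87 and 65 bp downstream in the H4K12la libraries. In the HDAC1 libraries it was -53 and -95 bp, which is upstream. The share of summits downstream of the start was 62.9% and 61.4% for H4K12la and 43.4% and 33.6% for HDAC1. The library medians of the targets did not overlap and were 150 bp apart on average (exact permutation p = 0.333, two-sided, the smallest possible).

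**Figure D2:**
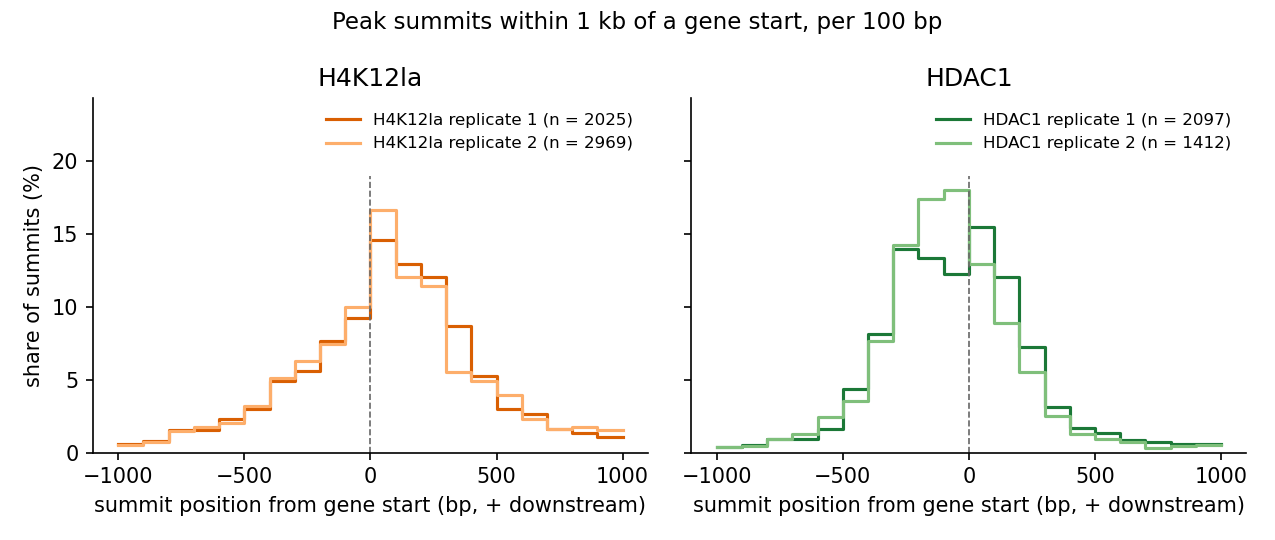
Share of summits (%, vertical axis) per 100 bp of distance from the nearest annotated gene start (bp, positive downstream, horizontal axis), for the 2 H4K12la and the 2 HDAC1 libraries. The dashed line is the start. H4K12la summits lie more often downstream of it, with medians of 87 and 65 bp, and HDAC1 summits more often upstream, with medians of -53 and -95 bp.

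The displacement was wider in single-target than in shared regions, a difference that was not tested. In H4K12la-only regions the median summit lay 142 and 111 bp downstream of the start, and in HDAC1-only regions it lay at -141 and -149 bp. In shared regions the medians were 40 and 9 bp for H4K12la and -37 and -77 bp for HDAC1. Where all 4 libraries had their summit nearest to the same start, in 242 shared regions, the medians were 14, -21.5, -83 and -101 bp for H4K12la replicates 1 and 2 and HDAC1 replicates 1 and 2. Within those regions the H4K12la summit lay a median of 5.5, 33, 2 and 24 bp downstream of the HDAC1 summit over the 4 pairs of libraries, beside 0 and 1 bp between replicates. The summits of the targets were interleaved in 139 of the 242 regions (57.4%). Both H4K12la summits were downstream of both HDAC1 summits in 64 (26.4%) and upstream of both in 39 (16.1%).

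Summits of the 2 targets in shared regions were about as far apart as summits of replicates. Over all 1242 shared regions the median distance was 89 bp between the H4K12la replicates and 52.5 bp between the HDAC1 replicates. Between targets it was 97 and 100.5 bp from H4K12la replicate 1 to the HDAC1 replicates and 74 and 76 bp from H4K12la replicate 2. The mean between targets exceeded the mean within targets by 16.1 bp (exact permutation test over the 3 pairings of the libraries, one-sided, p = 0.333, the smallest possible). That excess rests on both HDAC1 libraries: without HDAC1 replicate 1 it was 0 bp and without HDAC1 replicate 2 it was -2 bp. It was 31.5 and 41 bp without H4K12la replicate 1 or 2, and 40.8 bp without peaks that overlap an ENO1 peak. At gene ends alone it was 52.8 bp and away from them 2.75 bp.

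Distances varied with the place of the region. At the 472 shared gene-end regions the medians were 140 and 84.5 bp within targets and 151 to 184.5 bp between them. In the 416 shared regions beyond 50 kb they were 32.5 and 24 bp within and 26 to 32 bp between. All 4 summits fell within 100 bp in 9.75% of gene-end regions and in 44.4% of the 770 others. Among gene-end regions all 4 summits coincided at TFB1M, a mitochondrial ribosomal RNA methyltransferase gene, and at the paired genes NMRK1 and OSTF1, and they spanned 1 bp at EIF3H with UTP23, genes of translation initiation and ribosome assembly, at CEP290 with TMTC3, and at TAF11L10. The widest spans were 1373 bp at BIRC2, which encodes an inhibitor of apoptosis, 1186 bp at CAND1, an exchange factor of cullin ligases, 1109 bp at ZNF133, 1099 bp at SPAG4 and 1093 bp at PRCP with DDIAS.

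Peaks in shared regions ranked higher within their lists than peaks in single-target regions. The median percentile of shared peaks exceeded that of single-target peaks by 14.1 and 18 points in the H4K12la lists and by 20.8 and 19.6 points in the HDAC1 lists. The mean was 18.1 points and all 4 libraries pointed the same way (exact sign-flip permutation test over libraries, two-sided, p = 0.125, the smallest that 4 libraries allow). The classes come from the same peak calls: a shared region needed a peak in all 4 libraries, which can favour strong peaks. The 4 differences also rest on the same shared regions and are not independent, so the test cannot decide the question. Without peaks that overlap an ENO1 peak the mean was 7.81 points (exact sign-flip permutation p = 0.375).

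At gene ends the targets parted. The HDAC1 difference there was 20.1 and 16.9 points, but the H4K12la difference was -7.44 and 0.122 points. Away from gene ends it was 36.2 and 35.9 points for H4K12la and 22.3 and 23 points for HDAC1. The median percentile of H4K12la peaks at gene ends was 45.3 and 58.6 in shared regions and 52.7 and 58.5 in H4K12la-only regions. For HDAC1 it was 70.5 and 57.0 in shared regions and 50.4 and 40.2 in HDAC1-only regions. Whether the targets differ in this was not tested beyond these values.

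**Figure D3:**
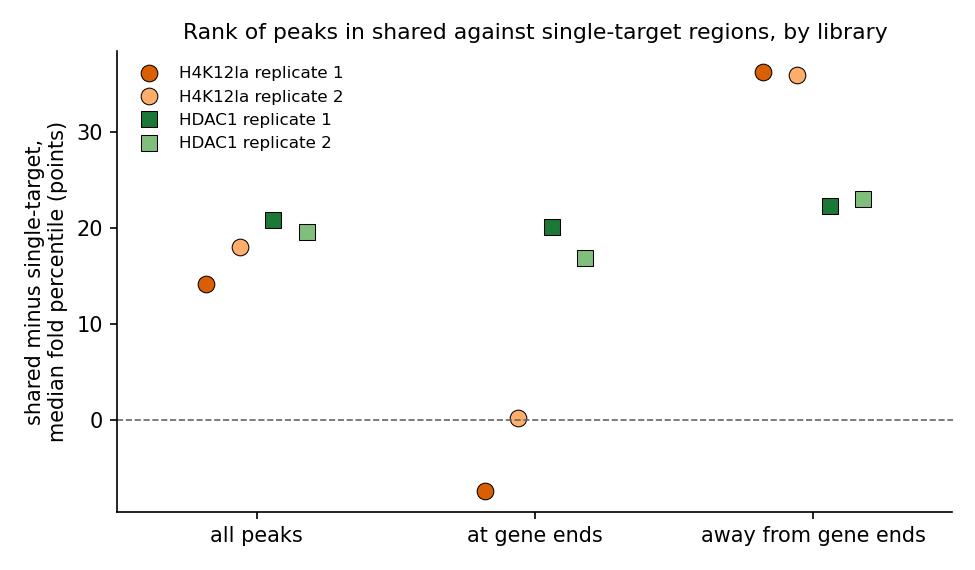
Median fold percentile of peaks in shared regions minus that in regions of the same target alone (points, vertical axis), for all peaks, peaks at gene ends and peaks away from gene ends. Each point is 1 library and the dashed line is 0. The H4K12la points at gene ends lie at -7.44 and 0.122 while all other points lie between 14.1 and 36.2.

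The ranks of the targets were related across shared regions, and more closely so away from gene ends. Spearman's rho of fold between an H4K12la and an HDAC1 library was 0.687 to 0.726 over 1242 regions, with a mean of 0.714 (SD 0.0181 over the 4 pairs), beside 0.851 and 0.854 between replicates. At the 472 gene-end regions rho was 0.249 to 0.342 between targets and 0.607 and 0.667 between replicates. In the 770 other regions it was 0.847 to 0.872 between targets and 0.916 and 0.919 between replicates. These are descriptions across regions of the same libraries, and regions are not replicates. Leaving out peaks that overlap an ENO1 peak brought the mean over all regions to 0.358.

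The gaps in rank ran in both directions. At gene ends both HDAC1 percentiles lay above both H4K12la percentiles in 169 of 472 shared regions, the reverse held in 75, and the rest overlapped. Beyond 50 kb the order turned: both H4K12la percentiles were above in 214 of 416 regions and both HDAC1 percentiles in 32. The gaps there were small, with a median of 2.57 points (H4K12la minus HDAC1, mean percentiles), beside -8.42 points at gene ends. Peaks beyond 50 kb were a larger part of the HDAC1 lists, and the part of this in the ranks was not tested. Taking the gap as the lower percentile of the one target minus the higher percentile of the other, the widest in favour of H4K12la at gene ends were at AFG1L, GUF1, TFAM, TTLL4 and FAM185A. At TFAM, which encodes the factor that packages and transcribes mitochondrial DNA, the H4K12la percentiles were 84.4 and 88.3 and the HDAC1 percentiles 48.3 and 42.1. At GUF1, a gene of mitochondrial translation, they were 88.8 and 93.4 against 49.2 and 39.3. By the same measure the widest in favour of HDAC1 were at the kinetochore gene SKA2 with PRR11, and at MAGI2, MTMR4, C10orf143 and KCTD9 with CDCA2. At SKA2 the HDAC1 percentiles were 89.1 and 85.2 and the H4K12la percentiles 1.47 and 13.1, and at MTMR4, a lipid phosphatase gene, they were 88.3 and 85.5 against 19.3 and 16.1. These regions were chosen for their gap, so the values describe them and test nothing.

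**Figure D4:**
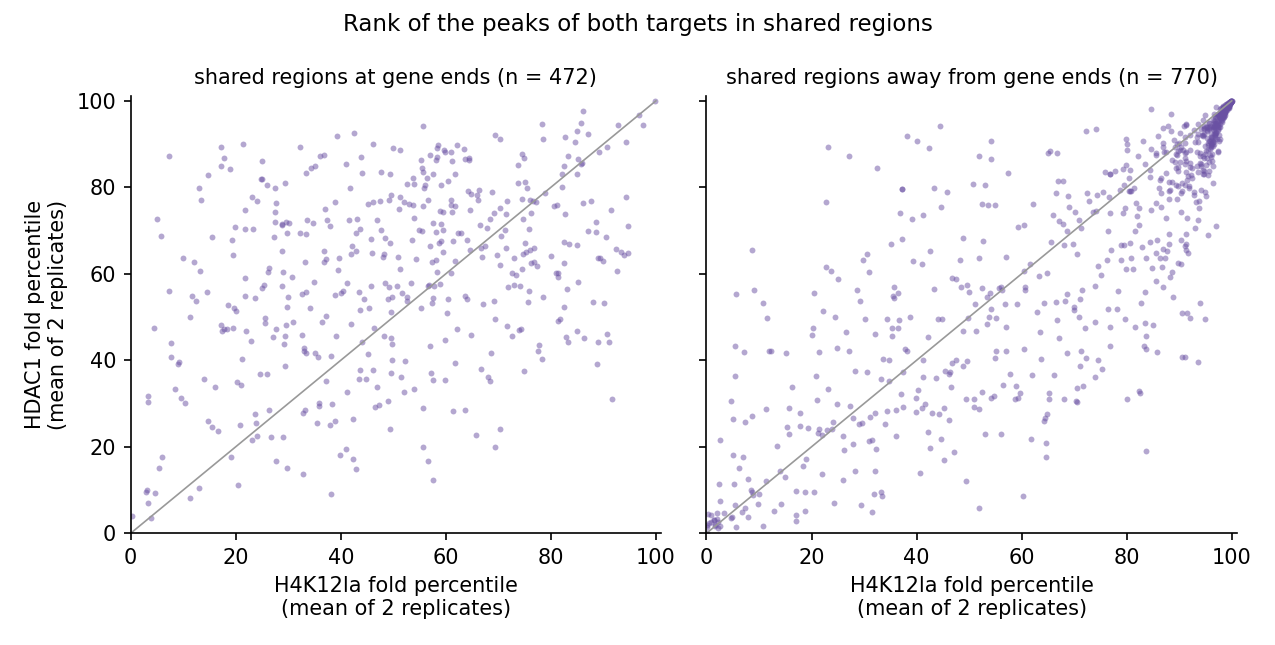
Mean fold percentile of the HDAC1 peaks (vertical axis) against that of the H4K12la peaks (horizontal axis) in shared regions, 472 at gene ends and 770 away from them. Each point is 1 region and the line marks equal percentiles. Points at gene ends scatter widely (rho 0.249 to 0.342), and points away from gene ends follow the line (0.847 to 0.872).

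Regions were ranked by the lowest of their percentiles over the libraries of their class. The strongest shared gene-end region by this measure was at TMEM216 (chr11:61391246-61391991), a gene of the ciliary transition zone, with folds of 20.7 and 21.5 for H4K12la and 23.9 and 25.7 for HDAC1. OR2T1, an olfactory receptor gene, followed with 7.02 and 11.5 for H4K12la and 11.2 and 12.2 for HDAC1, and then CCDC200 with 9.80, 8.35, 9.25 and 9.56 in the same order. The strongest 8 also included LRIF1, ERRFI1, a feedback inhibitor of the EGF receptor, EBAG9, B3GALNT2, a glycosyltransferase gene, and TP53I3, a p53-induced oxidoreductase gene. In each of the 8 the lowest of 4 percentiles was at least 84.4. The strongest shared regions away from gene ends were higher still: a region 1374 kb away from its closest protein-coding gene, WSB1, had folds of 25.9 and 27.1 for H4K12la and 29.8 and 33.5 for HDAC1, and one within the body of ACSL3, a fatty acid activating enzyme gene, had 23.9, 25.2, 26.4 and 30.7. Of shared regions beyond 50 kb, 86.3% also overlapped an ENO1 peak. No control library was analysed, so whether such high folds are particular to these targets was not tested.

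H4K12la alone was strongest at gene ends at TBC1D32 (chr6:121334461-121335290), a gene of cilium signalling, with folds of 7.18 and 7.47. STX17, a membrane fusion protein of autophagosomes, had 6.60 and 6.04, and MIGA1, a regulator of mitochondrial fusion, had 6.38 and 6.95. The start shared by GPATCH2 and SPATA17, that of YIPF5 beside KCTD16, and RBM45, MINDY3 and KLHL9 completed the 8, all with folds of 5.95 to 6.35 in both libraries. Away from gene ends the strongest were 37.3 kb from BCHE (8.25 and 7.97) and 51.4 kb from TMTC2 (7.07 and 9.33).

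HDAC1 alone was strongest at gene ends at FAM168A (chr11:73598075-73598651; 8.72 and 9.16) and PWWP2A (8.5 and 8.89), a reader of the histone variant H2A.Z. The region at FAM83F and TNRC6B, the second a microRNA silencing gene, had 10.03 and 8.46, and PDIA4, an oxidoreductase of the endoplasmic reticulum, had 7.18 and 8.96. HDGFL2, ODAD3 with PRKCSH, PELI1 and FLYWCH2 completed the 8. Away from gene ends HDAC1 alone reached higher, with 21.2 and 24 in a region 1910 kb from WSB1 and 18.1 and 19.7 in a region 161 kb from OR4F15. Of HDAC1-only regions beyond 50 kb, 60.4% overlapped an ENO1 peak, so HDAC1-only here means without H4K12la.

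Chromosome 19 set the targets apart at gene ends. It held 78 of the 478 HDAC1-only gene-end regions (16.3%) but 7 of the 812 H4K12la-only ones (0.862%) and 6 of the 472 shared ones (1.27%). By gene, 103 of the 1410 protein-coding genes there (7.30%) had HDAC1-only regions and 6 had H4K12la-only regions, beside 3.03% and 4.68% of protein-coding genes on all chromosomes. In whole lists chromosome 19 took 2.29% and 2.23% of the H4K12la peaks and 6.29% and 7.09% of the HDAC1 peaks. Of the 24 chromosomes, 10 had both H4K12la shares above both HDAC1 shares, 9 had the reverse and 5 overlapped, so non-overlap by itself was common. Genes named ZNF with a number were touched by 9 of the 78 HDAC1-only regions, beside 3 of the 7 H4K12la-only and 3 of the 6 shared ones. The named genes HDGFL2, ODAD3 and PRKCSH lie there, as do the ribosomal protein gene RPS19, the splicing genes SNRPA and SNRPD2, and ATF5 and MRPL4 of the lists below. Base composition and gene density differ between chromosomes, and their part in this was not tested.

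**Figure D5:**
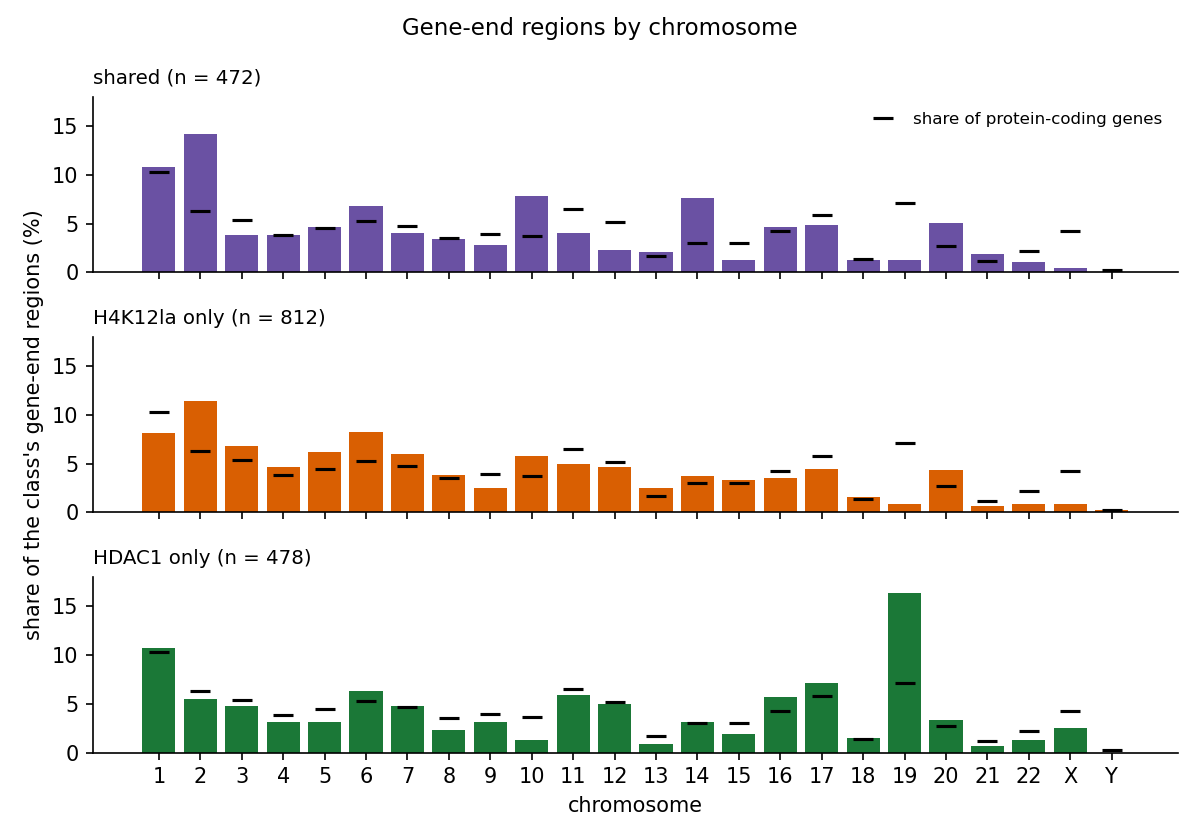
Share of the gene-end regions of each class (%, vertical axis) on each chromosome (horizontal axis), for 472 shared, 812 H4K12la-only and 478 HDAC1-only regions. Bars are shares of the class and black dashes are the share of all protein-coding genes on that chromosome. The HDAC1-only bar at chromosome 19 is 16.3% and those of the other classes are 1.27% and 0.862%.

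Paired starts were more frequent in shared regions. Of the regions within 1 kb of a start, 23.3% of 434 shared regions, 18.4% of 425 HDAC1-only regions and 11.6% of 765 H4K12la-only regions were near starts of different genes on opposite strands. Shared regions are the widest of the classes and HDAC1-only regions the narrowest, and the part of width in these shares was not tested. Away from protein-coding gene ends, 103 H4K12la-only (12.8%), 69 shared (8.96%) and 38 HDAC1-only regions (6.30%) touched the 1 kb around a long noncoding RNA gene end. In the same order, 4 of 805, 3 of 770 and 10 of 603 regions touched the 1 kb around a transfer RNA gene end.

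Promoter sequence was compared by the 300 bases around each annotated start, 250 before and 50 after it. The sets were 721 promoters of genes with shared regions, 1103 with H4K12la-only and 673 with HDAC1-only regions, beside 22199 promoters of all protein-coding genes in the table. They belong to 540, 867 and 512 genes in the same order. A gene enters by a region at either of its ends, so a promoter counted here need not hold a peak. CCAAT, read on both strands, was in 50.4% of HDAC1-only, 43.1% of shared and 33.2% of H4K12la-only promoters, beside 34.7% of all. GGGCGG was in 77.4%, 71.2% and 63.0%, beside 56.3% of all. CCGGAAG ran the other way, in 16.9%, 19.97% and 23.8%, beside 12.8% of all. TATAAA was in 4.75%, 3.47% and 4.26%, beside 9.47% of all.

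The other motifs were rarer. The cyclic AMP response core TGACGTC was in 7.73% of HDAC1-only, 4.16% of shared and 5.89% of H4K12la-only promoters, beside 4.09% of all. The NRF1 core GCATGCG was in 6.98%, 8.32% and 6.35%, beside 4.63%, and the YY1 motif CAAGATGG in 3.42%, 4.85% and 5.26%, beside 2.37%. Matches of different motifs may overlap, and several promoters of 1 gene can share sequence. The median number of CG pairs was 27 in HDAC1-only, 24 in shared and 25 in H4K12la-only promoters and 21 in all. In the printed promoters, MINDY3 holds CCGGAAG and CCAAT matches and ODAD3 a CCAAT match beside GGGCGG, while GPATCH2 holds none of them. A match is a stretch of letters and says nothing about a bound factor.

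By gene, of 19866 protein-coding genes 2058 (10.4%) had an H4K12la region at an end and 1627 (8.19%) an HDAC1 region. A shared region was found at 620 genes (3.12%), H4K12la-only regions at 930 (4.68%) and HDAC1-only regions at 601 (3.03%), and another 910 had other combinations. The gene groups below are read against these shares, with no test, and near the background they say nothing about the group.

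Mitochondrial ribosomal protein genes carried H4K12la more often than HDAC1. Of 78 such genes, 22 (28.2%) had an H4K12la region and 6 (7.69%) an HDAC1 region, and 19 were H4K12la-only, 1 HDAC1-only and 2 shared. The 19 regions had folds of 3.18 to 5.24 in the first and 2.88 to 5.64 in the second H4K12la library. MRPL3 had 4.77 and 5.64, MRPS33 5.24 and 4.75, and MRPL50 4.71 and 4.81. The HDAC1-only gene was MRPL4 (4.99 and 6.19), and the shared ones were MRPL45 and MRPS18B. Of 75 genes of oxidative phosphorylation, the respiratory chain and ATP synthase, 17 (22.7%) had an H4K12la region and 10 (13.3%) an HDAC1 region, with 6 shared, 5 H4K12la-only and 3 HDAC1-only. Among the shared ones was UQCRC2 of complex III, with 4.52 and 4.13 for H4K12la and 6.505 and 6.83 for HDAC1, and among those with H4K12la alone NDUFB1 of complex I (4.69 and 5.74).

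Replication-dependent histone genes carried HDAC1 more often than H4K12la. Of 62, 14 (22.6%) had an HDAC1 region and 2 (3.23%) an H4K12la region, with 11 HDAC1-only, 0 H4K12la-only and 0 shared. These 11 genes share 7 regions, since neighbouring histone genes can share a start region: H2AC11 and H2BC11 had the strongest, with folds of 6.72 and 5.59, and H4C14 had 4.29 and 3.78. Of 59 genes of splicing and RNA binding, 17 (28.8%) had an HDAC1 region and 10 (16.9%) an H4K12la region, with 9 HDAC1-only, 3 H4K12la-only and 3 shared. HNRNPA2B1 (5.79 and 6.19) and HNRNPA1 (7.001 and 5.13) had HDAC1 alone, SNRPB2 (4.75 and 5.65) had H4K12la alone, and HNRNPC, SF3B6 and PRPF4 were shared.

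Genes of heat shock and protein folding, chaperones among them, also had more HDAC1 regions. Of 43, 15 (34.9%) had an HDAC1 region and 8 (18.6%) an H4K12la region, with 7 HDAC1-only, 2 H4K12la-only and 4 shared. The mitochondrial chaperonin genes HSPD1 and HSPE1 share 1 HDAC1-only region (7.73 and 6.63), and CCT3, a subunit of the cytosolic chaperonin, had 7.65 and 6.88, while its partner CCT4 had H4K12la alone (2.87 and 3.08). The constitutive chaperone HSPA8 was shared, with 3.8 and 4.33 for H4K12la and 5.32 and 4.84 for HDAC1. Of 76 cytosolic ribosomal protein genes, 10 (13.2%) had an HDAC1 region and 5 (6.58%) an H4K12la region, beside 8.19% and 10.4% of all genes. By class, 7 had HDAC1 alone, RPS19 the strongest (6.92 and 6.21), and 4 had H4K12la alone, RPS6 (4.00 and 3.62) among them. RPL7 was shared.

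Genes of HDAC1's own complexes were found in each class. Of 38, 9 (23.7%) had an HDAC1 region and 6 (15.8%) an H4K12la region, beside 8.19% and 10.4% of all genes. By class, 3 were shared (MIER1, BRMS1L and RBBP4), 3 had H4K12la alone (MIER3, HDAC2 and RCOR3) and 3 had HDAC1 alone (GATAD2B, SAP130 and MTA2). MIER1, a scaffold that recruits HDAC1, had folds of 4.05 and 3.61 for H4K12la and 7.46 and 6.54 for HDAC1. HDAC2, the close paralogue of HDAC1, had 3.54 and 4.25 for H4K12la, and HDAC1 itself had a peak in the second H4K12la library only (3.08). Among 33 enzymes that add or remove acetyl and lactyl groups, SIRT5 was shared (4.11 and 5.75 for H4K12la, 6.55 and 4.46 for HDAC1), and KAT8, a histone acetyltransferase, had HDAC1 alone (4.44 and 3.79). EP300, an acetyltransferase described as writing lactyl groups, had 3.68 and 4.34 for H4K12la and 4.71 in the first HDAC1 library only.

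Glycolysis and lactate genes were near or below the background. Of 41, 3 (7.32%) had an H4K12la region and 3 an HDAC1 region. GPI, the enzyme after hexokinase, was shared, with 3.03 and 3.35 for H4K12la and 7.45 and 5.71 for HDAC1. PFKM (4.66 and 4.05) and the lactate exporter SLC16A3 (2.95 and 2.60) had H4K12la alone, and ENO1 (4.51 and 4.90) and ALDOA (3.69 and 2.79) had HDAC1 alone. LDHA had a peak in the second H4K12la library only (3.02).

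Liver genes were near the background for both targets. Of 32 liver transcription factor genes 3 (9.38%) had an H4K12la region and 3 an HDAC1 region, and of 63 secreted liver protein genes 5 (7.94%) and 5. F5, a coagulation factor gene, was shared (3.8 and 4.74 for H4K12la, 5.17 and 4.68 for HDAC1), and ORM1 and F10 had H4K12la alone. Of 65 cell cycle and DNA replication genes 11 (16.9%) had an H4K12la and 10 (15.4%) an HDAC1 region, beside 10.4% and 8.19% of all genes. The 5 shared ones included the replication genes CDC45 (4.80, 5.40, 6.75 and 6.07 over the 4 libraries, H4K12la first) and PCNA (3.35, 3.47, 5.25 and 3.76). MYC had HDAC1 alone (4.54 and 3.27). Of 34 genes of cholesterol and fatty acid synthesis 4 (11.8%) had an H4K12la and 7 (20.6%) an HDAC1 region, with ACAT2 shared. Among 387 olfactory receptor genes OR2T1 was the one with a region.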

How the data were processed

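CUT&Tag libraries of HepG2 cells for H4K12la and HDAC1, 2 per target, were grouped by the titles in the labels, and the 2 ENO1 libraries served for reference. FastQC, Bowtie2, MACS2, deepTools and the build hg38 are named in the submitters' processing notes. Their versions and settings, and whether a control library was used, are details not given in the sources used here. All deposited files are narrow peak lists, 1 per library. Their fold enrichment is a ratio over the peak caller's background, and the authors' lists also give -log10 q, which starts just above 2 in each list (a q of 0.01). The lists of 4567 to 7568 peaks limit the precision.

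Peaks sharing at least 1 bp were merged per target, and regions holding both replicates were kept. Genes and promoters came from RefSeq on GRCh38.p14 (19866 protein-coding genes; 718 entries on alternate sequences were left out), and starts from 22199 promoter entries, with strand, for 15843 (79.7%) of these genes. Medians and shares per library were compared by exact permutation over libraries; shares of regions have Wilson 95% intervals. The code was tested on simulated data, where 100% of planted classes were recovered. Python 3.11.15, numpy 2.4.6, pandas 2.3.3 and scipy 1.17.1 were used.

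Regions and lists were chosen with earlier results of these data known. Genes were named by a rule: per class the 8 gene-end and 4 other regions with the highest lowest percentile, the 5 widest rank gaps each way (lower percentile of the one target minus higher of the other), the 5 closest and 5 farthest summit sets, up to 4 members of a list per class, and ENO1, HDAC1, EP300, LDHA and MYC. Some that the rule selects were left unnamed. Alternatives varied the q threshold, list length, ENO1 overlap, overlap rule, gene-end window and libraries.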

Additional observations from a re-analysis of the deposited data

Results flagged for a closer look

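Peaks outside the numbered chromosomes, X and Y were not used in the comparison, and no control library was analysed here. They numbered 193 and 205 in the H4K12la libraries and 252 and 235 in the HDAC1 libraries, on unplaced or other sequences.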

How the results depend on the processing

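With peaks at a -log10 q of 5 or more, the overlap shares were 39.2% (H4K12la) and 34.7% (HDAC1), the gene-end shares of shared, H4K12la-only and HDAC1-only regions 28.9%, 55.8% and 47.6%, and the mean rho 0.820. With the 4567 strongest peaks per library they were 37.0%, 33.3%, 33.6%, 54.5% and 49.8%. Without peaks overlapping an ENO1 peak, the overlap shares were 24.05% and 34.4%, the gene-end shares of shared, H4K12la-only and HDAC1-only regions 63.3%, 50.5% and 55.7% (H4K12la-only now lowest), rho 0.358, the rank difference 7.81 points, and the gene-end difference of whole lists turned to -1.15 points. Requiring overlap of 50% of the shorter region gave an HDAC1 share of 38.6%, and 500 bp windows gave gene-end shares of 47.1% and 41.1% for H4K12la-only and HDAC1-only regions. At gene ends only, the overlap shares were 27.9% and 36.9% and rho 0.280; away from them 41.3%, 42.7% and 0.864. The causes were not tested.

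Leaving out each library in turn gave overlap shares of 23.5% to 50.2% (H4K12la) and 30.8% to 57.3% (HDAC1), gene-end shares of 35.3% to 44.4% (shared), 41.2% to 52.5% (H4K12la-only) and 29.6% to 46.7% (HDAC1-only), rho of 0.643 to 0.715 and a summit excess of -2 to 41 bp. Of the alternative values, 80 kept their direction or, for values with no test, stayed within error, 44 moved and 2 reversed. No p threshold entered this count. The 80 include the replicate-block values, which repeat the main differences by construction.

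With the replicate block the differences stayed at 72.5 bp, 4.55 points, -15.1 points and 150 bp, because pairing libraries does not change a mean difference. The smallest p of an exact sign-flip test over 2 pairs is 0.5, so such a test could not decide. For the gene-end share the same-numbered pairs went in different directions. H4K12la had 40.98% against 41.02% for HDAC1 in replicate 1, and 43.8% against 34.7% in replicate 2. Same-numbered libraries had a correlation of deviations of -0.113 over 1242 shared regions. With crossed numbers, as without, a test over 2 pairs cannot reach 0.05.

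Alternatives on starts (500 bp, single starts, list length, q), peak width, chromosome 19 and crossed numbers were chosen after seeing the data. Depth is unknown, and no exact permutation test of 2 libraries against 2 can reach 0.05.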
